A study of Mus musculus with 6 samples.

Results

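Fgf21, Gdf15 and the receptors through which fibroblast growth factors act on the liver were examined in livers that received the active form of CREB-H, against livers that received green fluorescent protein (GFP). The 8 genes were Fgf21, Fgf1, Gdf15, Klb, Fgfr1, Fgfr2, Fgfr3 and Fgfr4, matched to probe sets by the gene symbol of the array's annotation. Of these, 7 had 1 probe set each among the 41345 probe sets of the array. No probe set carried the symbol Gdf15 alone or with other genes, so Gdf15 itself was not analysed here.

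The CREB-H group was 3 mice injected intraperitoneally with AAV-CREB-H-ΔTC, a liver-targeting adeno-associated virus carrying the active form of CREB-H. The GFP group was 3 mice injected with AAV-GFP. All 6 were CREB-H KO mice (allele Creb3l3tm1.1Sad/J) described as 8 weeks old and fed a normal diet, and livers were taken 2 weeks after injection. Animals of both groups thus lacked their own CREB-H and carried a viral vector, and which promoter the vector used is not stated. Total RNA of each liver was read on 1 array, and every value below is a log2 signal or a difference of log2 signals, CREB-H minus GFP.

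Fgf21 is a hormone released mainly by the liver, in mice most strongly during fasting and under metabolic stress. It signals through a fibroblast growth factor receptor, chiefly the product of Fgfr1, together with the co-receptor β-Klotho, the product of Klb. CREB-H, a transcription factor held in the endoplasmic reticulum until it is cleaved, and the nuclear receptor PPARα are both known to activate Fgf21 in mouse liver. Gdf15 is a stress-induced hormone whose receptor, GFRAL, is known from the hindbrain. In hepatocytes, Fgfr4 with Klb receives Fgf15, the hormone of the gut that lowers bile acid synthesis.

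The promoter windows of Fgf21 and Klb are shown because these were the 2 genes whose CREB-H and GFP arrays did not overlap. The windows are from RefSeq on GRCm38.p6, run 5′ to 3′ on the gene's strand, and cover 250 bases before and 50 bases after the annotated start. The Fgf21 window is chr7:45615441-45615740 on the minus strand and the Klb window is chr5:65348161-65348460 on the plus strand. Capitals mark the motif matches.
Fgf21: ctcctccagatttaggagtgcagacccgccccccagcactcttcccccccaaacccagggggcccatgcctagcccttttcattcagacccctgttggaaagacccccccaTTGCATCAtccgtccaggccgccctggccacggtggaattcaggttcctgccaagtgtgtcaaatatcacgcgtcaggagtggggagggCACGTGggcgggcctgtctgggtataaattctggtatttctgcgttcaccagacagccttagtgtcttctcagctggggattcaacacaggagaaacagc
Klb: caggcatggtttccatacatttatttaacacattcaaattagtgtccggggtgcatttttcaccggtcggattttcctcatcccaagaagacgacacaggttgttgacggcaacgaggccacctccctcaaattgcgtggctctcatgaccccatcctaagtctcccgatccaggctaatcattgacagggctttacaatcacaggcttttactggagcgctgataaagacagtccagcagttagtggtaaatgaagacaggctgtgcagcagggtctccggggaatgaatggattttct

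The first match in the Fgf21 window, TTGCATCA, is the reverse complement of TGATGCAA, a form of the composite site bound by ATF4 and C/EBP factors, and begins 139 bases before the start. That motif was present in 0.895% of all 32851 windows of 300 bases. The second match, the E-box CACGTG, begins 50 bases before the start and was present in 7.15% of all windows. For the cyclic AMP response element, the exact string TGACGT was searched. It was not in the Fgf21 or Klb window on either strand, and was in 7.51% of all windows. The shorter string TGACG was not searched or counted over all windows. It can be read in the Klb window, and its reverse complement CGTCA in the Fgf21 window, so a shorter site is not excluded in either. The full element TGACGTCA, which contains TGACGT, was thus absent from both and was in 1.79% of all windows. The DR1 element and the endoplasmic reticulum stress element, searched by their consensus on both strands, were also not in these windows (0.0396% and 0.119% of all windows). The Klb window held none of the 6 motifs. Among the other windows, CACGTG was found in 1 of the 2 windows of Gdf15 and in that of Fgfr2, and no motif was found in those of Fgfr3 and Fgfr4. A match describes these letters and does not show binding.

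Array signals ran from 1.42 to 13.9, with array medians of 4.98 to 5.01. Creb3l3, the gene of CREB-H, read 6.73, 7.25 and 7.58 on the CREB-H arrays and 6.55, 5.93 and 6.40 on the GFP arrays, a difference in the direction of the labels. Its limma adjusted p was 0.647 (log2 difference 0.89, SE 0.25). Replicate 3 of each group stood apart. Its Y-linked genes Kdm5d, Eif2s3y and Uty averaged 7.67 in the CREB-H array and 7.83 in the GFP array, against 3.15 to 3.39 on the other 4 arrays. The X-linked gene Xist went the other way, at 3.75 and 4.43 on these arrays against 10.83 to 11.35 on the other 4. No label states sex. For each of the 7 genes the difference is therefore also given on the 4 arrays lacking Y-linked signal and for the pair that carries it. For other genes it is given where the 2 sets of arrays differed widely. Creb3l3 differed by 0.75 on the 4 arrays and by 1.17 for the pair. Hepatocyte markers (Alb, Ttr, Apoa1, Tat, Serpina1c and Cps1) averaged 13.29 to 13.34 on CREB-H arrays and 13.21 to 13.36 on GFP arrays. In whole liver, fewer cells of a type and less RNA per cell cannot be told apart.

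Fgf21 was the gene with the widest separation. It read 7.27, 6.63 and 10.30 on the CREB-H arrays, against 5.24, 4.99 and 5.71 on the GFP arrays (probe set 17490899, Entrez 56636). All 3 CREB-H arrays lay above all 3 GFP arrays, and CREB-H replicate 3 lay far above the other CREB-H arrays. The means were 8.07 ± 1.96 with CREB-H and 5.31 ± 0.36 with GFP (SD, n = 3 each), a log2 difference of 2.76 (SE 0.89). This corresponds to 6.77-fold, with a 95% interval of 1.57 to 29.1. The exact two-sided permutation p over the 6 arrays was 0.1, the smallest that 3 against 3 arrays allow.

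Fgf21 did not pass limma's test after Benjamini-Hochberg adjustment over all 41345 probe sets (adjusted p = 0.667, unadjusted p = 0.0175). By signed log2 difference, from the most raised downwards, it ranked 10 among all probe sets. By unadjusted p, which counts both directions, it ranked 1086. Its CREB-H arrays spread widely: only 38 probe sets, Fgf21 included, had an SD at least as large among the CREB-H arrays. Without CREB-H replicate 3 the difference was 1.64 (SE 0.28, adjusted p = 0.56). On the 4 arrays lacking Y-linked signal it was 1.84 (SE 0.25, adjusted p = 0.517), and the 2 arrays that carry it, 1 per group, differed by 4.60. Fgf21 thus read higher with CREB-H within both sets of arrays, by amounts that differed.

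The array with the highest Fgf21 also had the highest Creb3l3 signal, 7.58 on CREB-H replicate 3. The order was not shared below it: CREB-H replicate 1 read higher than replicate 2 in Fgf21 (7.27 and 6.63) and lower in Creb3l3 (6.73 and 7.25).

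Fgf1, a growth factor of the paracrine group that binds all 4 receptors, did not separate the groups. It read 10.15, 10.14 and 9.97 with CREB-H and 10.27, 10.29 and 9.91 with GFP (probe set 17353962, Entrez 14164). The highest and the lowest of the 6 values were both GFP arrays. The log2 difference was -0.07 (SE 0.14, 95% interval -0.40 to 0.26), with an exact permutation p of 0.6 and a limma adjusted p of 0.956. The interval leaves room for a log2 difference of 0.40 downwards or 0.26 upwards. It was -0.14 on the 4 arrays lacking Y-linked signal and 0.07 for the pair that carries it. The difference between the 2 ligands was not tested, since each probe set has its own scale.

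**Figure D1:**
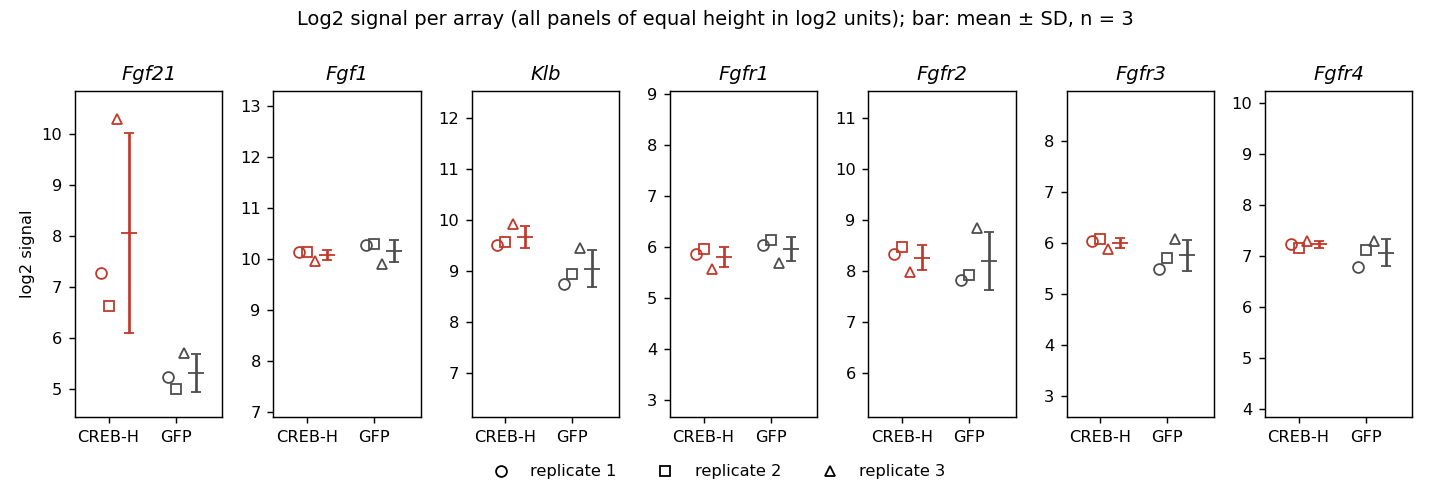
Log2 signal (vertical axis) of the 7 measured genes on each array, CREB-H left of GFP, with replicates by symbol and bars for mean ± SD (n = 3); every panel has the same height in log2 units. In Fgf21 and Klb the 3 CREB-H arrays sit above the 3 GFP arrays, and in the other 5 genes the groups overlap.

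Klb, the co-receptor that gives liver and fat cells their response to the endocrine fibroblast growth factors, was the other gene without overlap. It read 9.51, 9.58 and 9.92 with CREB-H and 8.75, 8.94 and 9.46 with GFP (probe set 17437765, Entrez 83379). The lowest CREB-H array exceeded the highest GFP array by little, 9.51 against 9.46, and replicate 3 was the highest of each group. The means were 9.67 ± 0.22 with CREB-H and 9.05 ± 0.37 with GFP (SD, n = 3 each).

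The log2 difference of Klb was 0.62 (SE 0.21), or 1.54-fold with a 95% interval of 1.09 to 2.17. It did not pass (limma adjusted p = 0.686, unadjusted p = 0.0216, exact permutation p = 0.1). The difference was 0.70 on the 4 arrays lacking Y-linked signal and 0.46 for the pair that carries it. With any 1 array left out it stayed between 0.47 and 0.82.

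Of the 7 genes, 0 passed limma's test after adjustment, against 0.00484% of all probe sets (2 of 41345). At an unadjusted p below 0.05 there were 2 of 7, Fgf21 and Klb, against 6.89% of all probe sets in either direction. The same 2 of 7 (28.6%) had groups that did not overlap, both higher with CREB-H, against 12.3% of all probe sets in either direction and 5.23% in the higher direction. With 7 genes such shares rest on 2 genes. Over all probe sets 1210 of the 2850 with an unadjusted limma p below 0.05 were higher. With 1 probe set per gene, as for the 7 genes, there were 1515 of 22180, with 852 higher. The median log2 difference was 0.17 over the 7 genes, -0.015 over all probe sets and 0.003 with 1 probe set per gene.

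The 4 receptors are tyrosine kinases of the cell surface. Fgfr4, the main receptor of hepatocytes, read 7.24, 7.16 and 7.29 with CREB-H and 6.78, 7.12 and 7.30 with GFP (probe set 17287590, Entrez 14186). The CREB-H arrays lay close together inside the range of the GFP arrays. The log2 difference was 0.17 (SE 0.15, 95% interval -0.19 to 0.52; limma adjusted p = 0.885, exact permutation p = 0.5). Leaving out GFP replicate 1 gave 0.02, and leaving out GFP replicate 3 gave 0.28. The 4 arrays lacking Y-linked signal gave 0.25, and the pair that carries it 0.00.

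Fgfr1, the receptor through which Fgf21 chiefly acts in fat tissue, read 5.85, 5.95 and 5.57 with CREB-H and 6.04, 6.14 and 5.68 with GFP (probe set 17500108, Entrez 14182). Replicate 3 was the lowest of each group, and the groups overlapped. The log2 difference was -0.17 (SE 0.16, 95% interval -0.56 to 0.23; limma adjusted p = 0.898, exact permutation p = 0.4). It ranged from -0.30 without GFP replicate 3 to -0.06 without CREB-H replicate 3. The 4 arrays lacking Y-linked signal gave -0.19, and the pair that carries it -0.11.

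Fgfr2, whose splice forms bind different ligands in epithelial and mesenchymal cells, read 8.35, 8.47 and 7.99 with CREB-H and 7.83, 7.93 and 8.85 with GFP (probe set 17496947, Entrez 14183). The GFP arrays spanned the CREB-H arrays on both sides, with GFP replicate 3 the highest of all 6. Over all arrays the log2 difference was 0.07 (SE 0.29, 95% interval -0.61 to 0.75; limma adjusted p = 0.979, exact permutation p = 0.8). It was 0.53 (SE 0.13, adjusted p = 0.54) on the 4 arrays lacking Y-linked signal and -0.86 for the pair that carries it, so the direction was opposite in the 2 sets.

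Fgfr3, known as a restraint on bone growth, read 6.04, 6.07 and 5.88 with CREB-H and 5.48, 5.71 and 6.08 with GFP (probe set 17436481, Entrez 14184). As in Fgfr2, the lowest CREB-H array was replicate 3 and the highest of all arrays was GFP replicate 3. The log2 difference was 0.24 (SE 0.17, 95% interval -0.15 to 0.64; limma adjusted p = 0.846, exact permutation p = 0.4). It was 0.46 on the 4 arrays lacking Y-linked signal and -0.20 for the pair that carries it. Leaving out GFP replicate 1 gave 0.10, and leaving out GFP replicate 3 gave 0.40.

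GFP replicate 3 was an end point in every gene: it was the highest GFP array in 5 genes (Fgf21, Klb, Fgfr2, Fgfr3 and Fgfr4) and the lowest in 2 (Fgf1 and Fgfr1). In Fgfr2, Fgfr3 and Fgfr4 it was the highest of all 6 arrays. CREB-H replicate 3 was the highest CREB-H array in 3 genes (Fgf21, Klb and Fgfr4) and the lowest in 4. In any gene 2 of the 3 arrays of a group are end points. How often replicate 3 was one over all probe sets was not counted. Without GFP replicate 3, or on the 4 arrays without Y-linked signal, the groups did not overlap in any of the 7 genes, with 5 higher and 2 lower (Fgf1 and Fgfr1). Without GFP replicate 3, 25.1% of all probe sets had groups without overlap (11.8% higher and 13.3% lower). On the 4 arrays the share was 39.7% (18.5% higher and 21.1% lower). All the same, 0 of the 7 passed limma's adjusted test in those fits, which called 0 of 41345 probe sets each, with 3155 and 3338 at an unadjusted p below 0.05.

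A limma term for the difference between the 2 sets of arrays was fitted after the data had been seen. In Fgf21 the difference was larger by 2.76 (SE 0.43) in the pair with Y-linked signal, with an unadjusted p of 0.00166 and a limma adjusted p of 0.503. In Fgfr2 it was lower by this measure, at -1.40 (SE 0.22; unadjusted p = 0.00159, limma adjusted p = 0.503). In Fgfr3 the term was -0.66 (SE 0.24, limma adjusted p = 0.71). In the other 4 genes it lay between -0.25 and 0.20. No probe set of the 41345 passed for this term with limma, and 2852 had an unadjusted p below 0.05. The pair holds 1 array per group, so the SE and p of this term come from the spread within the other 4 arrays and assume the same spread in the pair. They do not show that the differences of the 2 sets of arrays would recur in other animals.

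**Figure D2:**
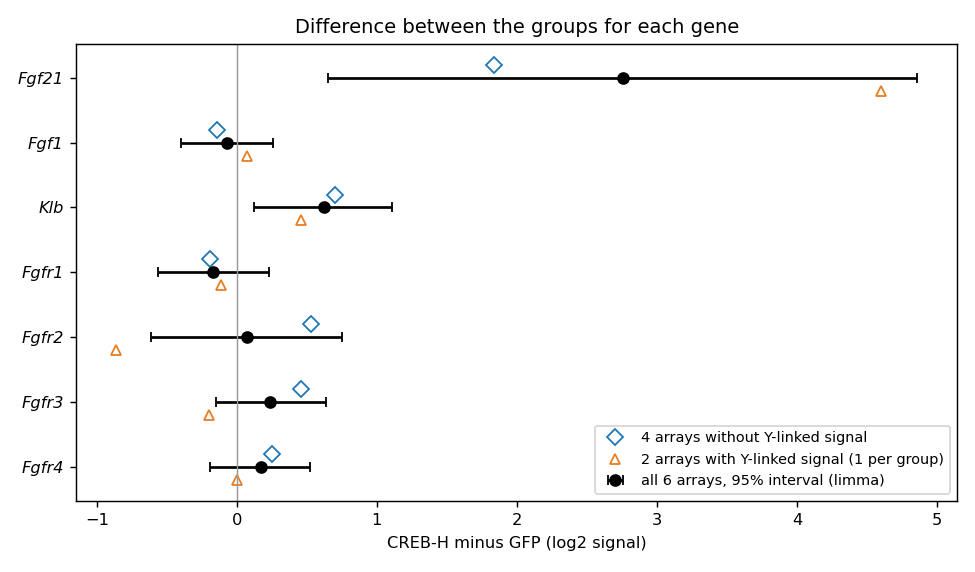
Log2 difference, CREB-H minus GFP (horizontal axis), of each gene over all 6 arrays with limma's 95% interval, and the difference on the 4 arrays without Y-linked signal and on the 2 with it. Fgf21 runs from 1.84 to 4.60 between the 2 sets of arrays, and Fgfr2 lies on opposite sides of 0 at 0.53 and -0.86.

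The genes whose signal was most like that of Fgf21 over the 6 arrays were taken from 619 genes with an SD of at least 0.5. Likeness was measured by Pearson's r, given as a description, since the 6 points share the 2 treatments and the same arrays. The closest 5 were Zfp9, a zinc finger gene (0.995), Fgd6, an exchange factor for Cdc42-type GTPases (0.994), Fam183b (0.99), Stap1, an adaptor protein (0.989), and Atf5, a stress-responsive transcription factor (0.985). Zfp9 read 6.41, 5.73 and 7.88 with CREB-H and 5.01, 4.94 and 5.26 with GFP, in the same order of arrays as Fgf21. Atf5 read 8.65, 8.77 and 9.70 with CREB-H and 8.24, 8.21 and 8.38 with GFP. In all 5 genes CREB-H replicate 3 was the highest array, which follows from choosing them by likeness to Fgf21, itself far highest there. Their log2 differences ran from 0.76 to 1.60, below the 2.76 of Fgf21, and none passed (limma adjusted p = 0.639 to 0.715).

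**Figure D3:**
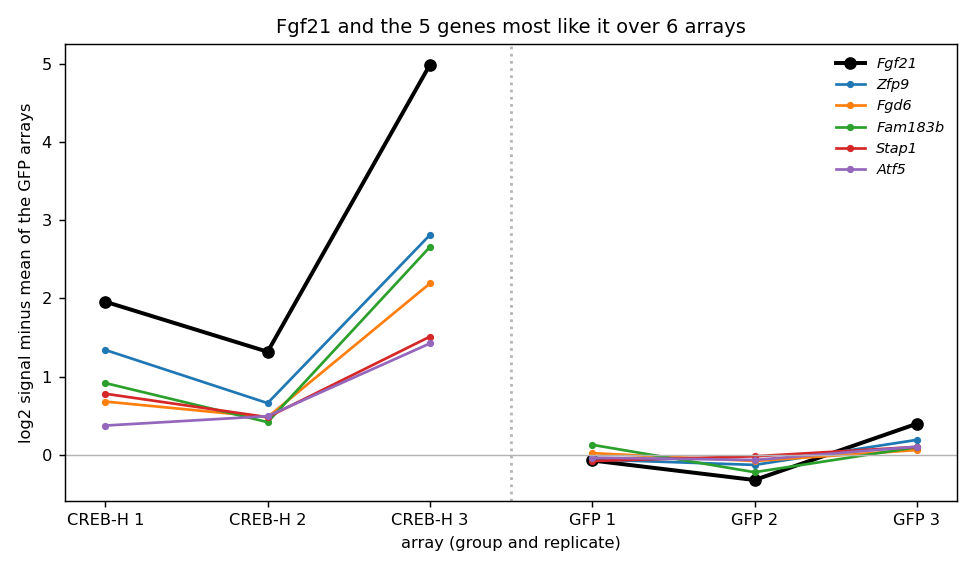
Log2 signal minus the mean of the GFP arrays (vertical axis) on each array (horizontal axis) for Fgf21 and the 5 genes with the highest Pearson's r to it; lines join arrays of a group to guide the eye and imply no order. All 6 genes peak on CREB-H replicate 3 and lie near 0 on the GFP arrays. The 5 genes were chosen by this likeness, so the shared shape follows from the choice.

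Regulators of Fgf21 transcription were examined as a list. Of 14 measured genes 11 were higher and 3 lower on average, and 0 passed limma's adjusted test. In 4 the groups did not overlap, all higher (Creb3l3, Ppara, Nr1d2 and Bach1). Of all probe sets 12.3% had no overlap in either direction, and 5.23% were higher without overlap. At an unadjusted p below 0.05 there were also 4, with Pparg in place of Bach1, against 6.89% of all probe sets. The median log2 difference was 0.17, and 0.18 on the 4 arrays without Y-linked signal, against -0.015 over all probe sets. The list includes Creb3l3, the supplied gene, and was not split into activators and repressors. The largest difference of the list was that of Nr1d1, at 0.96 (SE 0.94), with overlapping groups. Nr1d1 read 8.41, 8.79 and 9.32 with CREB-H and 6.91, 6.46 and 10.25 with GFP. Its direction turned between the 2 sets of arrays, with 1.91 on the 4 arrays and -0.93 for the pair. Ppara, the fatty acid sensor that drives Fgf21 in fasting, read 10.04, 9.73 and 10.12 with CREB-H and 9.21, 9.12 and 9.68 with GFP (log2 difference 0.63, SE 0.19, limma adjusted p = 0.647). Every CREB-H array was above every GFP array, and the difference was 0.72 on the 4 arrays and 0.44 for the pair. Pparg, its relative of fat cells, differed by 0.93 (SE 0.33, limma adjusted p = 0.686), with overlap through GFP replicate 3. It was 1.28 on the 4 arrays and 0.23 for the pair.

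Partners at the cell surface and in the extracellular matrix included the largest difference among the other genes of the pathway. Of 9 measured heparan sulfate carriers and growth factor binding proteins, 7 were higher and 2 lower on average and 0 passed limma's adjusted test. In 4 the groups did not overlap, all higher (Gpc1, Gpc3, Sdc4 and Hspg2). Of all probe sets 12.3% had no overlap in either direction, and 5.23% were higher without overlap. At an unadjusted p below 0.05 there were 4, 3 higher (Gpc1, Gpc3 and Sdc4) and 1 lower, against 6.89% of all probe sets. The lower one was Sdc1, the proteoglycan syndecan-1, with a log2 difference of -0.51 (SE 0.21, limma adjusted p = 0.723) and overlapping groups. The list median was 0.14, and 0.20 on the 4 arrays without Y-linked signal. Gpc1, a heparan sulfate proteoglycan anchored to the membrane, read 7.05, 6.26 and 7.90 with CREB-H and 5.60, 5.56 and 5.74 with GFP. The log2 difference was 1.44 (SE 0.38, limma adjusted p = 0.626), and the order of the arrays was that of Fgf21. It was 1.07 on the 4 arrays and 2.16 for the pair. Sdc4, the proteoglycan syndecan-4, differed by 0.52 (SE 0.15, limma adjusted p = 0.647), with 0.33 on the 4 arrays and 0.90 for the pair. Gpc3, another membrane-anchored proteoglycan, differed by 0.37 (SE 0.14, limma adjusted p = 0.698).

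For the other members of the Fgf family, Fgf2 to Fgf18, Fgf20, Fgf22 and Fgf23, all 20 were measured. Fgf11 to Fgf14 code for intracellular proteins that are not secreted, and the others for secreted ligands. Of the 20, 10 were higher and 10 lower, and 0 passed limma's adjusted test. None had groups without overlap (12.3% of all probe sets), and 0 had a limma unadjusted p below 0.05 (6.89% of all probe sets). Their log2 differences ran from -0.22 to 0.24 around a median of -0.02. Fgf15, the gut hormone, differed by 0.03 (SE 0.14). Those with the lowest unadjusted p were Fgf22 at 0.24 (SE 0.12; 0.37 on the 4 arrays and -0.01 for the pair), Fgf17 at -0.22 (SE 0.16) and Fgf3 at -0.18 (SE 0.15).

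Co-receptors, the GDF15 receptor and enzymes that process the ligands had 9 measured genes, 5 higher and 4 lower, with a median of 0.09. With limma 0 passed, and 1, Furin, had an unadjusted p below 0.05, against 6.89% of all probe sets. Groups did not overlap in 1, also Furin, against 12.3% of all probe sets. Gfral, the receptor of Gdf15, read 3.14, 3.12 and 2.79 with CREB-H and 3.01, 3.26 and 2.91 with GFP, with overlapping groups (log2 difference -0.04, SE 0.15). Furin, a protease that cleaves precursors of secreted proteins, read 10.02, 9.90 and 10.10 with CREB-H and 9.59, 9.62 and 9.62 with GFP. Its groups did not overlap (log2 difference 0.40, SE 0.10, limma adjusted p = 0.623; 0.36 on the 4 arrays and 0.48 for the pair). Mmp14, a membrane protease, differed by 0.36 (SE 0.19), and Fgfrl1, a receptor without a kinase domain, by 0.25 (SE 0.17). Fgfrl1 turned direction between the 2 sets of arrays, with 0.50 on the 4 arrays and -0.24 for the pair.

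Genes downstream of the receptors had list medians near 0. Of 16 relay genes 10 were measured, 5 higher and 5 lower (median -0.01), and of 14 feedback and response genes 8 were higher and 6 lower (median 0.02). None passed in either list. With limma 0 relay genes and 1 response gene had an unadjusted p below 0.05, against 6.89% of all probe sets. Groups did not overlap in 1 relay gene higher (Grb2), 2 relay genes lower (Sos1 and Ptpn11) and 1 response gene higher. Of all probe sets 12.3% had no overlap in either direction. Spred2, an inhibitor of the RAS pathway, was the response gene in both counts. Its log2 difference was 0.49 (SE 0.14, limma adjusted p = 0.647), with 0.58 on the 4 arrays and 0.29 for the pair. Dusp6, a phosphatase that inactivates ERK and a common readout of this signal, read 8.22, 9.36 and 7.91 with CREB-H and 7.93, 7.94 and 8.02 with GFP. Its high value was on CREB-H replicate 2, where Fgf21 was the lowest of the CREB-H arrays. A link between Dusp6 and Fgf21 was not tested. The log2 difference of Dusp6 was 0.53 (SE 0.35), with 0.86 on the 4 arrays and -0.11 for the pair. Spry1, another feedback inhibitor, differed by -0.26 (SE 0.13). Among relay genes Sos1 differed by -0.26 (SE 0.12), Ptpn11 by -0.16 (SE 0.10) and Frs3 by -0.17 (SE 0.11).

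The list drawn up for Fgf15 and Fgfr4 held 7 hepatic genes of bile acid synthesis or its regulation, with 3 higher, 4 lower and 0 passed. Whether each of them responds to Fgf15 was not tested. With limma 0 had an unadjusted p below 0.05, against 6.89% of all probe sets. Groups did not overlap in 1, Nr1h4, against 12.3% of all probe sets. The list median was -0.28, and -0.08 on the 4 arrays without Y-linked signal. Cyp7a1, the rate-limiting enzyme of bile acid synthesis, read 10.93, 10.46 and 11.31 with CREB-H and 11.06, 11.33 and 11.24 with GFP (log2 difference -0.31, SE 0.22). The groups overlapped, and the difference was -0.50 on the 4 arrays and 0.07 for the pair. The bile acid receptor gene Nr1h4 differed by -0.28 (SE 0.14), with -0.08 on the 4 arrays and -0.69 for the pair. The orphan receptor gene Nr5a2, an activator of Cyp7a1, differed by 0.30 (SE 0.16).

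Gdf15 was not measured, and the genes known to induce it were described. Their mRNA signals do not stand in for that of Gdf15. Of 9 such genes 8 were measured, 2 higher and 6 lower, with a median of -0.15, and 0 passed. With limma 1 had an unadjusted p below 0.05, against 6.89% of all probe sets. Groups did not overlap in 1, the same gene, against 12.3% of all probe sets. Ddit3, the stress factor CHOP, was that gene. It read 6.60, 6.39 and 6.31 with CREB-H and 6.91, 6.82 and 6.69 with GFP, every CREB-H array below every GFP array (log2 difference -0.37, SE 0.12, limma adjusted p = 0.676). Atf4, also a regulator of Fgf21, differed by -0.23 (SE 0.13), and Nfe2l2, the antioxidant regulator NRF2, by -0.26 (SE 0.17), which was -0.06 on the 4 arrays and -0.65 for the pair.

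**Figure D4:**
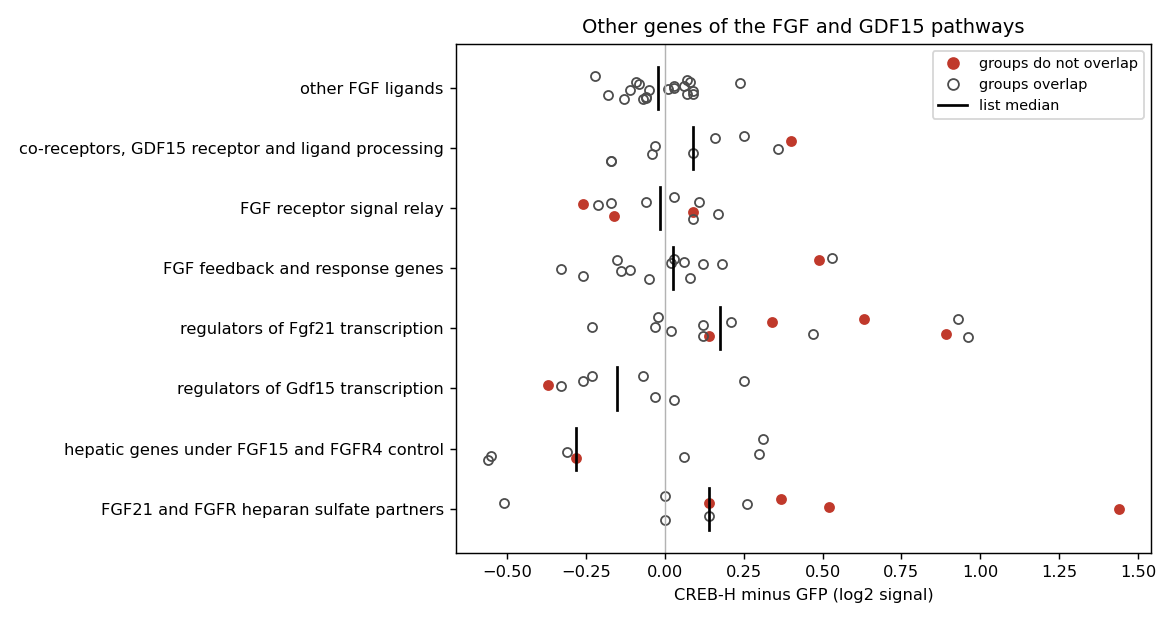
Log2 difference, CREB-H minus GFP (horizontal axis), of the measured genes of 8 lists of the FGF and GDF15 pathways; filled points have groups that do not overlap, open points overlap, and the black bar is the list median. The regulators of Fgf21 and the heparan sulfate partners hold 4 filled points each, all above 0. Of all probe sets 12.3% had no overlap in either direction, and 5.23% were higher without overlap. The filled points below 0 are Sos1, Ptpn11, Ddit3 and Nr1h4.

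Markers of the other cell types of the liver were examined beside these results. The mean log2 signal of 5 Kupffer cell markers was 8.30 to 9.25 on CREB-H arrays and 7.66 to 9.07 on GFP arrays, with 5 of 5 higher on average. That of 7 stellate cell markers was 7.86 to 8.23 with CREB-H and 7.81 to 8.01 with GFP, with 6 of 7 higher. The endothelial markers averaged 9.11 to 9.31 with CREB-H and 8.94 to 9.30 with GFP, with 4 of 5 higher. Markers of bile duct cells averaged 4.86 to 5.01 with CREB-H and 4.77 to 4.91 with GFP, with 3 of 4 higher. Those of lymphocytes and neutrophils averaged 5.12 to 5.42 with CREB-H and 5.02 to 5.36 with GFP, with 2 of 5 higher. Among them the B cell gene Cd79a differed by 0.57 without overlap (SE 0.18, limma adjusted p = 0.647). The rest of that list overlapped, with Ptprc at 0.21, Cd3e at -0.14, S100a8 at -0.07 and S100a9 at -0.14. Elsewhere among these markers, Krt19 (bile duct) and Pdgfrb (stellate) were higher without overlap, and Sox9 (bile duct) was lower without overlap. Of all probe sets 12.3% had no overlap in either direction, and 5.23% were higher without overlap. None of these markers passed, and their part in the differences above was not tested.

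Markers of tissues that can adhere to liver samples were also read. The 4 measured markers of pancreatic acinar cells, which also make Fgf21, averaged 4.39, 5.17 and 4.27 on the CREB-H arrays and 4.38 to 4.47 on the GFP arrays. All 4 were higher on average, with a median log2 difference of 0.18, and the highest mean was on CREB-H replicate 2. Their part in the Fgf21 difference was not tested. Markers of fat averaged 4.44 to 4.65 with CREB-H and 4.36 to 4.54 with GFP, and those of skeletal muscle 4.47 to 4.67 with CREB-H and 4.57 to 4.83 with GFP. These probe sets have no detection call here, so none can be called absent.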

How the data were processed

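Liver RNA of 6 mice was hybridised to 1-colour arrays after biotin labelling, per the labels' protocols. The authors deposited 1 log2 signal for each probe set of each array, made in Transcriptome Analysis Console according to the submitters' processing notes. No source used here states the summarisation, normalization or filters. That the scale is log2 was read from the range of the values. Scanner files were not used, so background was not examined, and small signals may show too small a difference. Precision is limited by the number of arrays, with a median SE of 0.142. No 2 arrays held the same values.

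Probe sets were named from GEO's platform annotation (23521 with 1 symbol, 1814 with several, 16010 not listed). The reference table of GRCm38.p6 held 23328 of the Entrez IDs. For a gene with several probe sets the brightest was used. Promoters of 6 of the 8 genes matched RefSeq by symbol; Fgf1 and Fgfr1 had no entry.

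The comparison used lmFit and eBayes of limma 3.58.1 (R 4.3.3) over all 41345 probe sets, two-sided, with Benjamini-Hochberg adjustment and a threshold of 0.05. Single genes had an exact permutation test (scipy 1.17.1). The model was run on simulated data with independent normal noise. These data held no Y-linked split and no outlying array, so the run does not cover such arrays. Alternatives were scaling, filters on dim probe sets, array weights, variance priors, a replicate block, a term for Y-linked signal (mean above 5), the 4 arrays without it, and each array left out. Named genes were the 8 genes, Creb3l3, 3 genes per list by lowest unadjusted p, and the 5 most like Fgf21, without predicted genes. Fgf15, Gfral, Nr1d1, the markers and the further genes given beside counts were named beyond that rule. The members, lists and alternatives were chosen with earlier results of these data known.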

Additional observations from a re-analysis of the deposited data

How the results depend on the processing

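No alternative brought any of the 7 genes past the threshold: over all of them the limma adjusted p ran from 0.387 to 0.853 for Fgf21 and from 0.375 to 0.887 for Klb. Of 126 differences recomputed under alternatives, 123 kept their direction, but many of these could not change. Filters on dim probe sets, variance priors, the replicate block, 1 probe set per gene and the Y-linked term leave the difference itself as it was. In this balanced design they alter only its SE and p. The 3 that reversed were of Fgfr2, at -0.03 without CREB-H replicate 2, -0.12 without GFP replicate 1 and -0.07 without GFP replicate 2. With 1 array left out, Fgfr2 ran from -0.12 to 0.39 and Fgf1 from -0.19 to 0.00. The count of genes without overlap was 2 under both scalings and 7 on the 4 arrays without Y-linked signal, and ran from 2 to 7 with 1 array left out. Over all probe sets, limma called 2. It called 1 with a term for Y-linked signal, 0 on the 4 arrays without it and 0 with a replicate block (3224 at an unadjusted p below 0.05). With 1 array left out it called 0 to 2. The cause of these changes was not tested. The fits with a term for Y-linked signal and with a replicate block used all the arrays, and the others had fewer. Same-numbered arrays did not all deviate together (r = 0.0785, 0.127 and 0.33 across probe sets for replicates 1, 2 and 3), and the labels do not pair them. With the replicate block Fgf21 had an adjusted p of 0.491 and Klb 0.491. Since each gene had 1 probe set, averaging probe sets left each difference as it was. Without detection calls, low signals such as those of Gfral cannot be told from background.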
